A study of Mus musculus and Homo sapiens and blank sample with 8 samples.

Results

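The list of effective loci of HEK293T output library 3 held 473424 genomic loci of 25 bp, which is 85.3% of the 554938 distinct loci in the 3 HEK293T lists. Library 1 listed 74104 loci and library 2 listed 57843. In MAE-seq (massively active enhancer sequencing), random DNA fragments of 25 bp are cloned in front of a minimal promoter that drives mCherry, a red fluorescent reporter, and the plasmids are transfected into cells. Output library 3 was made from fluorescent HEK293T cells, a human embryonic kidney epithelial line, sorted 48 h after transfection. The methods describe the input as transfected cells without a sort, whereas the protocol in the labels, the same for both libraries, describes fluorescent cells. The ratios below are given for an unsorted input as in the methods, which the files could not settle. Neither source names the cell type of the input. All loci of the list were used, and they were set against the 4748793 loci of the input on the same genome build (hg19, GRCh37).

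Each side of the comparison is 1 library, so no test between conditions was possible. The intervals below are 95% intervals, exact binomial for shares and exact Poisson for counts of loci, and cover counting error only. For both libraries the labels name a lipofection reagent and 5 to 15 PCR cycles, while the methods name another transfection reagent for HEK293T. The methods also describe unlike amplification, 15 cycles in pooled reactions for the input and 5 to 15 cycles in 1 step for the output. The reporter is a transient plasmid, so a locus is the place in the genome where a random fragment mapped and not a chromosomal copy that was tested. The reads were mapped with up to 2 mismatches, so a tested fragment can differ from the genome sequence printed here. The files hold DNA only, and the identity of the cells could not be checked against marker genes.

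Enhancers are DNA elements that raise transcription from a promoter when transcription factors bind their short motifs, and they work in either orientation and over long distances. A reporter assay with random inserts tests a sequence outside its chromatin, so the readout depends on the insert and on the factors of the cell. Among the factors whose motifs were searched are AP-1, a dimer of the Fos and Jun families that answers growth and stress signals, and the glucocorticoid receptor, which answers steroid hormones.

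The sequences below include loci with the most reads among those present in the input and among those absent from it. The others are of loci that all 3 HEK293T lists held and of loci that the study cloned for luciferase assays. They are the + strand of the genome at the position of the locus, and capitals mark a match to one of the motifs searched.
GATAD1 3' UTR, present in the input: gtgatgttgtttctgtgattgatga
ZWINT intergenic, present in the input, TATA box: aaTTTATAcatttcaaaagacatat
Noncoding gene intron, present in the input, glucocorticoid receptor motif and AP-1: cttTGTTCTaacgTGACTCAagggc
NPVF intergenic, absent from the input: gtaaatatgggcaggctctgtgact
DNAAF6 intergenic, absent from the input, GATA: AGATAAccaagaaacactgtgtgtg
EYS intron, absent from the input: gtgttatatgggcaccataaaagtt
KCNQ5 intron, in all 3 lists: atttcacatattagttcttgttact
ZFHX3 intron, in all 3 lists: cctttcacacccagcccacttcaca
SLCO2A1 intron, cloned: ctcacttaacccctgcagctaccat
HACD3 promoter, cloned: cgagtcttgtttcctttgggggtta

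The locus with the most reads lay at chr7:92083835-92083859 in the 3' UTR of GATAD1, which encodes a zinc finger protein bound to chromatin, and had 71 reads in library 3 and 1 read in the input. The TATA box locus at chr10:58303729-58303753 had 28 reads and 1 input read, with the start site of ZWINT, a kinetochore gene, 182707 bp away. The locus with both an AP-1 motif and a glucocorticoid receptor motif, at chr10:107663340-107663364, had 18 reads and 1 input read. It lay in an intron of a gene that is not protein-coding, and the closest start site of a protein-coding gene, SORCS1, lay 703624 bp away. These loci had few input reads, and among the 10 present loci with the most reads the highest input value was 7 reads, at chr4:115082645-115082669.

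Among loci absent from the input the most reads stood at chr7:25321194-25321218, which had 34 reads and lay 53101 bp from the start site of NPVF, a neuropeptide gene. The locus at chrX:106536714-106536738, with a GATA match, had 28 reads. The locus at chr6:66415009-66415033 had 20 reads and lay in an intron of EYS, a gene of retinal photoreceptors. Of the 20 loci with the most reads in these 2 groups, 10 present and 10 absent, none lay in a promoter. Promoters held 4.14% of all loci in the list and 4.12% of input loci, so 20 loci are too few to show a difference.

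Reads per locus were low. The deposited signal is a multiple of 6.28, the value of 1 read, and every locus came out as a whole number of reads. The list held 1244716 reads, at a median of 2 reads per locus and with 71 at the highest. Loci with 1 or 2 reads numbered 305271 (64.5% of the list) and held 42.8% of its reads. Loci with 3 to 5 reads numbered 141594 (29.9%), and loci with 6 or more reads numbered 26559 (5.61%) with 14.4% of the reads. Only 1474 loci had 10 or more reads, 11 had 20 or more and 2 had 30 or more.

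Even numbers of reads were common in library 3. A single read supported 77508 loci (16.4%), 2 reads 227763 loci (48.1%), 3 reads 45855 loci and 4 reads 83868 loci. The same alternation went on at 5 reads (11871 loci), 6 reads (17724), 7 reads (2989) and 8 reads (3661). Among loci with 2 to 9 reads, 84.4% of library 3 loci had an even number, against 71.0% in the input, 42.6% in library 1 and 57.2% in library 2. These shares depend on the loci with 2 reads, which were 48.1% of library 3, 30.9% of the input, 0.0432% of library 1 and 24.2% of library 2. Beyond 2 reads, loci of the input and of libraries 1 and 2 became fewer at each read number up to 12. In the input they went from 545220 at 3 reads to 433462 at 4. The alternation of library 3 also stood among its loci absent from the input, with 16703 loci at 3 reads and 31201 at 4, and its cause was not tested. Values given below for loci with 4 or more reads start at such an even count.

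Of the 473424 loci, 413458 were present in the input (87.3%, 87.2 to 87.4) and 59966 were absent from it. These members were chosen by the authors' Poisson test of output against input signal, so a locus's ratio, p and q describe the selection and support nothing here. The ratio of signals at present loci was 1.80 at the lowest, 13.03 at the median and 925 at the highest. The number of positions that entered that test was solved from the paired p and q. It came to 447497 present and 320560 absent positions, so that 58.3% (58.2 to 58.4) of the positions tested were present in the input. The list kept 92.4% of the present and 18.7% of the absent positions.

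The threshold set different read numbers for these 2 sets. A present locus entered the list with 1 read when it had up to 3 input reads, with 2 reads up to 12 input reads and with 3 reads up to 21. An absent locus was given an input signal of 1 output read and needed at least 3 reads. The present locus just inside had 3 reads and 21 input reads, with a deposited Poisson p-value of 0.0081 and a q-value of 0.00877. The absent loci just inside had 3 reads, with a deposited p-value of 3.23e-05 and a q-value of 0.000172. Positions that did not pass are not in the list, 34039 present and 260594 absent, and their reads were not analysed here. Loci with 1 or 2 reads were therefore all present. At 3 or more reads, where both sets could enter, 64.3% of 168153 loci were present (64.1 to 64.6), with 63.5% (63.2 to 63.7) at 3 to 5 reads and 68.9% (68.3 to 69.4) at 6 or more.

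No absent locus started closer than 24 bp to the start of an input locus, and 229 of them (0.382%) lay at that distance. Among input loci themselves 5.29% of the gaps between starts were under 25 bp. The cause of this sharp edge was not tested. The nearest input locus of absent loci lay at a median of 203 bp. Within 1 kb of an input locus stood 95.9% of the absent loci, and the input itself is dense, with a median gap of 368 bp.

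Seen from the input, 8.71% of its loci (8.68 to 8.73) were in the list of library 3. Loci with more input reads were listed more often. Of input loci with 1 read 6.69% were listed, and of those with 2 reads 7.99%. The share dropped from 11.3% at 3 input reads to 9.25% at 4, where loci with 1 output read no longer enter the list, and from 23.4% at 12 input reads to 11.5% at 13, where loci with 2 reads no longer enter. The list can therefore not be read as a rate across input reads without a fixed minimum.

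With at least 4 output reads, a minimum that passes at all of these input reads, 0.996% of the input loci with 1 read were listed. The share was 1.32% at 2 input reads, 2.22% at 4, 4.49% at 8, 7.48% (6.89 to 8.10) at 12 and 12.9% (11.1 to 14.8) at 16. Above 12 input reads the share did not climb steadily, with 9.04% at 13, 8.22% (7.26 to 9.25) at 14, 9.90% at 15 and 9.20% (7.40 to 11.3) at 17. The part of fragment abundance in the listing of a locus was not tested. Across the 413458 present loci Spearman's rho of output and input reads was 0.243, and across the 79035 with 4 or more output reads it was 0.0721. These are descriptions over loci of the same 2 libraries, and the threshold of the list ties output to input reads.

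**Figure D1:**
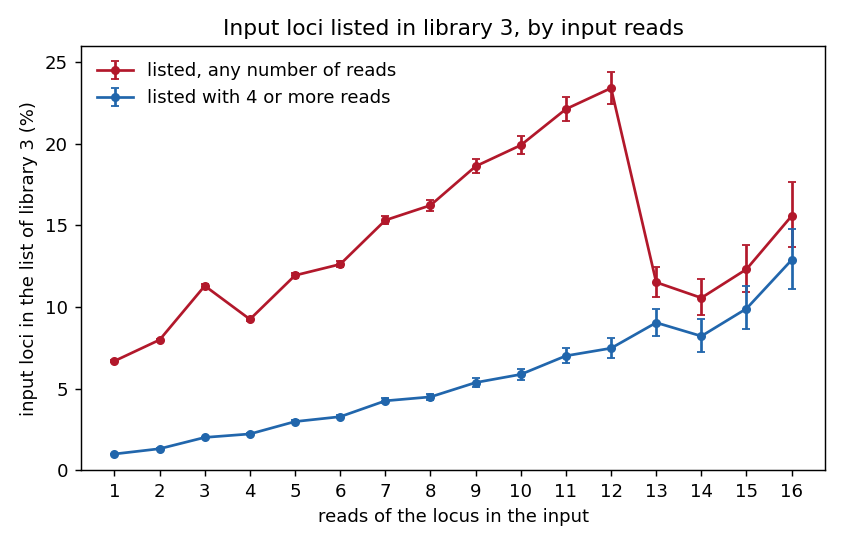
Share of input loci that library 3 listed (vertical axis, %) by their reads in the input (horizontal axis), for any number of output reads and for 4 or more. Bars are exact 95% binomial intervals, and with 4 or more reads the share goes from 0.996% at 1 input read to 7.48% at 12, then varies between 8.22% at 14 and 12.9% at 16.

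Genomic features of library 3 loci were close to those of the input. Promoters (from 1000 bp before to 100 bp after a start site) held 19595 loci, 4.14% of library 3 against 4.12% of the input, a log2 ratio of 0.0069 (-0.01 to 0.03). Introns held 53.1% against 53.2% and intergenic DNA 35.2% against 35.3%. Exons held 1.89% against 1.86%, and 3' UTRs held 1.03% in both. The region around transcript ends (TTS) was higher by a log2 ratio of 0.03 (0.01 to 0.05), with 4.55% against 4.46%. With a Poisson test of whole reads it stood at 0.00058 (-0.03 to 0.03), and at 3 or more reads its interval also held 0, at 0.03 (-0.0062 to 0.06). The 5' UTRs held 480 loci and a log2 ratio of 0.12 (-0.01 to 0.25), the largest among these features, with an interval that holds 0.

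The loci with 6 or more reads, which rest on the most reads, did not move away from the input either. Their promoter share was 4.19% (1111 loci), a log2 ratio of 0.02 (-0.06 to 0.11). Loci absent from the input had a promoter share of 4.18% and a log2 ratio of 0.02 (-0.04 to 0.08). The median distance to the nearest start site of a protein-coding gene was 45135 bp in library 3 and 45149 bp in the input. Within 1 kb of such a start lay 4.13% of library 3 loci against 4.14% of input loci, and beyond 100 kb 35.7% in both. Promoter shares in the lists of libraries 1 and 2 were 5.18% and 4.96%, and no test of library 3 against them was made, since it is a single library.

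Base composition differed by a fraction of a percentage point. The mean GC content was 37.8% in library 3 and 37.5% in the input, a difference of 0.267 percentage points (0.234 to 0.301) beside an SD among loci of 11.2 points. The difference was 0.203 points for loci with 1 or 2 reads, 0.350 for 3 to 5 reads and 0.567 (0.433 to 0.701) for 6 or more. The input weighted by its reads stood 0.0983 points above the unweighted input. Very AT-rich input loci, with 0 to 4 G or C bases, were listed in 7.54% of cases (7.40 to 7.68), against 8.83% with 8 to 10 such bases and 8.94% with 11 to 13. With 4 or more output reads the same 3 bins gave 1.33%, 1.70% and 1.74%. Loci with a CpG made up 14.3% of library 3 and 14.2% of the input, while libraries 1 and 2 had 21.4% and 20.8% and mean GC contents of 42.2% and 41.8%.

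Motifs were searched as fixed letters on both strands of each locus, and 29 were counted. Of these, 16 were held by at least 1000 library 3 loci, and their log2 ratios to the input ran from -0.11 to 0.08. Over all 29, the interval left out 0 for 3 motifs that were higher and 4 that were lower. The AP-1 motif TGAGTCA was in 0.336% of library 3 loci and 0.319% of input loci, a log2 ratio of 0.08 (0.0036 to 0.15). The interval held 0 against the input weighted by reads, at 0.05 (-0.02 to 0.12), and at equal GC content, at 0.06 (-0.01 to 0.13). The ratio was 0.10 (0.02 to 0.17) among present loci and -0.09 (-0.31 to 0.12) among absent loci. The glucocorticoid receptor motif TGTTCT was in 2.01% against 1.94%, a log2 ratio of 0.05 (0.02 to 0.08). The CpG dinucleotide was higher by a log2 ratio of 0.02 (0.0081 to 0.03), and at equal GC content it stood at 0.0037 (-0.0064 to 0.01). With the whole-read Poisson test the intervals of these 3 motifs held 0.

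The TATA box TATAAA, the element that TBP binds in core promoters, was the lowest of the 16 common motifs. It was in 2.70% of library 3 loci (12799) and 2.92% of input loci, a log2 ratio of -0.11 (-0.14 to -0.09). It stood at -0.14 among present loci and -0.16 (-0.27 to -0.06) at 6 or more reads, but at 0.07 (0.0006 to 0.13) among absent loci. Against the input weighted by reads the ratio over all loci was -0.04 (-0.07 to -0.02). The homeobox core TAATTA, also without G or C, was in 1.11% against 1.17% (log2 ratio -0.08). Its interval held 0 against the input weighted by reads, at -0.03 (-0.07 to 0.005), and at equal GC content, at -0.02 (-0.06 to 0.02). Lower as well were GGGCGG, the GC box of SP and KLF factors, with 532 loci and a log2 ratio of -0.16 (-0.28 to -0.03), and CCGGAA, the core of ETS factors, with 504 loci and -0.14 (-0.27 to -0.01). The GC box stood at -0.08 (-0.20 to 0.05) against the weighted input. The ETS core stood at -0.02 (-0.23 to 0.18) at 3 or more reads.

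A pair of motifs stood higher at 6 or more reads. RUNX (TGTGGT) was in 1.77% of these loci against 1.57% of the input, a log2 ratio of 0.18 (0.05 to 0.31), while over all loci it was 0.01. NF-kB (GGGACTTTC) was in 8 of these loci, a log2 ratio of 1.28 (0.17 to 2.21). The intervals were not corrected for the 29 motifs and the classes of loci searched, and no motif was tested in another library of this kind.

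Sequence words gave a similar picture for AT-rich DNA. All 2080 hexamers, counted with their reverse complements, were compared with the input at equal numbers of G and C bases. For present loci input reads were made equal as well. Absent loci have no input reads, so the ratios of present and absent loci have unlike baselines. The comparison was chosen after the values were seen. The 12 farthest from the input among present loci were all lower, with log2 ratios of -0.12 to -0.06, and 8 of them held no G or C. The first was AATATA, with 9833 present loci against 10679 expected, and ATAATA had the same ratio of -0.12. At 4 or more reads 11 of the 12 kept an interval below 0, with ATAATA at -0.21. These loci are part of the present loci by which the 12 were picked, so they give no separate support. Among absent loci none of the 12 had an interval below 0, and their log2 ratios ran from -0.04 to 0.12. TATAAA was one of the 12, at -0.06 among present and 0.09 among absent loci. At single positions of the locus the share of a base differed from the input by at most 0.335 percentage points over all loci, 0.404 among present and 0.572 among absent loci.

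Genes were compared by the loci within the gene and 50 kb on each side, as the library 3 share over the input share, for protein-coding genes with at least 10 loci expected from the input. Of 20163 genes 18667 qualified, and their median log2 ratio was -0.01. At least 2-fold higher were 2 genes (0.0107%) and at least 2-fold lower were 129 genes (0.691%). The lower genes had few loci, with a median of 15.4 expected against 19.8 for all genes and a maximum of 36.5. With 10 kb on each side no gene of 7216 was 2-fold higher and 62 (0.859%) were 2-fold lower. With at least 20 expected loci none of 9179 was higher and 10 (0.109%) were lower. Deviations from the input had an SD of 0.967 in units of counting error, where independent counts would give 1. Of the library 3 loci 87.3% are themselves input loci, so the counts are not independent and 1 is not an exact reference. The 409 genes with at least 100 expected loci stayed between -0.36 and 0.44. The same direction in all 3 read classes was found for 4446 of the 18667 genes, 1791 higher and 2655 lower. In the highest and lowest genes named below, the class with 6 or more reads had at most 0.951 expected loci. A single locus or none therefore sets the direction of that class, and the shared direction carries little information.

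The 2 higher genes are neighbours on chromosome 12 and have overlapping windows. HPD, which encodes a dioxygenase of tyrosine breakdown, had 30 loci against 14.6 expected, a log2 ratio of 1.02 (0.46 to 1.52). By reads these were 18 loci with 1 or 2 reads against 9.39 expected, 10 with 3 to 5 against 4.35, and 2 with 6 or more against 0.817. SETD1B, a histone methyltransferase of active promoters, had 28 against 13.7, a log2 ratio of 1.01 (0.43 to 1.53). The highest 10 genes with the same direction in all read classes went on with C16orf90 at 0.99. NINJ1, a mediator of plasma membrane rupture in dying cells, had 28 loci against 14.3 and a log2 ratio of 0.95. PITPNA, which carries phosphatidylinositol between membranes, had 33 against 16.9, a log2 ratio of 0.94. HHIPL1 stood at 0.91, THOC5, a subunit of the THO complex of mRNA export, at 0.89, and TAF13, a subunit of the general factor TFIID, at 0.88. C19orf33 and KRTAP4-5, a keratin-associated protein of hair, were at 0.88 and 0.87.

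The 10 lowest genes had 2 or 3 loci each. SDF2L1, of a chaperone complex in the endoplasmic reticulum, had 2 loci against 11.4 expected, a log2 ratio of -2.25 (-4.00 to -0.62). QPCTL, a glutaminyl cyclase of the Golgi, had 2 against 10.7 (log2 ratio -2.16). CA4, a carbonic anhydrase of the cell surface, had 2 against 10.6 (log2 ratio -2.15). On chromosome 22 the neighbours NCAPH2 (condensin), TYMP (thymidine phosphorylase) and SCO2 (cytochrome c oxidase assembly) have overlapping windows and had 3 loci each, with log2 ratios of -1.80, -1.75 and -1.70. RPL3, a protein of the large ribosomal subunit, stood at -1.79 and TRMT2A, a tRNA methyltransferase, at -1.67. MAGEH1 on the X chromosome had 3 loci against 10.2 (log2 ratio -1.61). SNRPD2, a core protein of spliceosomal particles and a neighbour of QPCTL, had 3 against 10.1 (log2 ratio -1.59).

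Lists of genes that mark the origin of the line, other tissues or general functions were described with the same ratio. The 8 lists held 167 genes, of which 161 had enough expected loci. The interval was above 0 for 5 of them and below 0 for 2, while among all 18667 genes it was above 0 for 313 (1.68%) and below for 267 (1.43%). None was 2-fold higher and 1 was 2-fold lower. The loci of neighbouring genes overlap, so the genes of a list are not independent. Counts above and below 0 in a list stand beside a median of -0.01 over all 18667 genes. No list was tested against that background.

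Kidney development genes (26 tested) had a median log2 ratio of 0.02, with 14 above and 12 below 0. EMX2, a homeobox factor of the urogenital system, had 30 loci against 20.04 expected, a log2 ratio of 0.57 (0.01 to 1.08). PAX2, a paired-box factor of the early kidney, had 42 against 31.1 (log2 ratio 0.43, -0.04 to 0.86). HOXD11 was the lowest of the list, with 13 against 19.7 (log2 ratio -0.58, -1.45 to 0.17). Nephron transport genes (25) had a median of -0.03, and the interval of each held 0. AQP2, the water channel of the collecting duct, had 10 loci against 15.95 (log2 ratio -0.65, -1.64 to 0.20).

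Neuronal genes (22) had a median of 0.11, with 16 above and 6 below 0. The neurofilament gene NEFH had 23 loci against 13.6 (log2 ratio 0.74, 0.10 to 1.32), and its window overlaps that of THOC5. INA, another neuronal intermediate filament gene, had 22 against 13.3 (log2 ratio 0.71, 0.05 to 1.30). Muscle genes (18) had the lowest median of the 8 lists, -0.18, with 4 above and 14 below 0, and the interval of each held 0. MYOD1, the master regulator of myogenesis, had 9 loci against 16.1 (log2 ratio -0.80, -1.84 to 0.09). MYF5 had 14 against 22.9 and MYOG 11 against 16.7, and the interval of each held 0. Over the whole muscle list 891 loci stood against 939 expected.

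Housekeeping genes (19) had a median of 0.04. VCP, an ATPase of protein quality control, had 7 loci against 14.9, a log2 ratio of -1.03 (-2.21 to -0.04). EEF1A1, a translation elongation factor, had 7 against 14.5 (log2 ratio -0.996, -2.17 to -0.0033). Cofactors of enhancers (19) had a median of 0.03. SMARCA4, the ATPase of BAF chromatin remodelling complexes, had 35 loci against 22.7 (log2 ratio 0.61, 0.10 to 1.08). The acetyltransferase EP300 had 16 against 25.1 (log2 ratio -0.64, -1.41 to 0.05). Immediate early genes (17) had a median of 0.12, and the interval of each held 0. Pluripotency genes (15) had a median of 0.04, with PRDM14 at 24 loci against 14.8 (log2 ratio 0.68, 0.06 to 1.25).

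Larger regions also followed the input. For each of the 24 chromosomes the interval of the log2 ratio held 0, and the ratios ran from -0.02 for X to 0.03 for Y. Among 2818 windows of 1 Mb the log2 ratio ran from -0.50 to 0.36 with an SD of 0.111. Deviations had an SD of 0.972 in units of counting error, with the same limit as for genes. The interval was above 0 in 67 windows (2.38%) and below in 43 (1.53%). The lowest window, on X from 55000001 to 56000000, held 95 loci against 134 expected and contains MAGEH1. The highest, on chromosome 6 from 56000001 to 57000000, held 248 against 193.

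The listing of an input locus was compared with that of the input locus before it. Within 1 kb of another listed locus lay 30.9% of library 3 loci (30.8 to 31.0), with a median gap of 3903 bp. The planned comparison took input loci at a fixed step in genome order to the same number. It gave 0.0220% and a median gap of 5378 bp. A fixed step spaces loci evenly, so these values cannot show whether library 3 loci cluster. The input locus after a listed one was listed in 8.67% of cases (8.59 to 8.76), and the one after an unlisted one in 8.71% (8.68 to 8.74). For input loci that overlapped, with starts under 25 bp apart, these shares were 8.52% (8.15 to 8.90) and 8.69% (8.58 to 8.81). With 4 or more reads they were 1.60% (1.52 to 1.69) and 1.67% (1.65 to 1.68) over all distances. For overlapping input loci with 4 or more reads the share was lower after a listed locus, 1.20% (0.880 to 1.59) against 1.66% (1.61 to 1.71), and these intervals do not overlap. This comparison was chosen after the values were seen.

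Few loci were in the other HEK293T lists. Library 3 shared 25 loci with library 1, 0.00528% of its own list and 0.0337% of that of library 1. It shared 20 with library 2, 0.00422% and 0.0346%. Libraries 1 and 2 shared 50406 loci, 68.0% and 87.1% of their lists. All 3 lists held 18 loci. At the KCNQ5 locus, chr6:73531192-73531216 in an intron of this potassium channel gene, library 3 had 6 reads, library 1 had 16 and library 2 had 4. At the ZFHX3 locus, chr16:73848752-73848776, the reads were 5, 8 and 5. Of the 27 loci shared with either list, 23 were present in the input, beside 87.3% of all library 3 loci. Of all loci of library 1 0.256% were present in the input, and of those of library 2 0.327%.

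The study cloned 40 HEK293T sites for luciferase assays, and 30 of them were in the list of library 3. That list holds 85.3% of the distinct loci in the 3 HEK293T lists. The reads of these 30 sites in library 3 ran from 2 to 7 with a median of 2. Of the sites, 15 had 1 or 2 reads, 13 had 3 to 5 and 2 had 6 or more. The most, 7 reads with 4 input reads, stood at chr3:133758897-133758921 in an intron of SLCO2A1, the prostaglandin transporter gene. The HACD3 promoter locus at chr15:65843333-65843357, which lies 19 bp from the start site, had 3 reads and 2 input reads. Of the 30, 28 were present in the input with 1 to 9 reads, beside 87.3% of all library 3 loci. Introns held 17 of them, intergenic DNA 10 and promoters 2, beside 53.1%, 35.2% and 4.14% of all library 3 loci. A CpG was in 5 of them, beside 14.3%. None of the 30 was in the list of library 1 or library 2, beside 27 of all 473424 library 3 loci in either. The study's supplement describes the sites as a random selection.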

How the data were processed

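MAE-seq reads were trimmed, mapped with BWA (version not given in the submitters' processing notes) and filtered by the authors to uniquely mapped 25 bp inserts with at most 2 mismatches on hg19. The deposited signal is the read number that the authors normalized by total reads and amplification. The deposited p-value and q-value of each locus come from the authors' Poisson test and Benjamini-Hochberg correction. The total depth of library 3 is unknown, since its list holds only positions that passed.

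Signals were divided by the value of 1 read (6.28 in library 3, 0.482 in the input; tolerance 0.01), and loci were matched by identical position. The authors' p-values were recomputed with a largest difference of 9.57e-17. Features, gene windows and motifs were taken from GRCh37 and GENCODE release 44 lifted to it, on chromosomes 1 to 22, X and Y (473196 loci; 228 lay on other contigs). The centre of a locus set its feature, in the order promoter, TTS (from 100 bp before to 1000 bp after a transcript end), UTR, exon, intron and intergenic. Gene ratios used a pseudocount of 0.5 loci. Genes named are the 10 highest and 10 lowest with the same direction in the 3 read classes, and of each list the genes at least 2-fold changed or some of the 3 highest and 3 lowest. Loci named are among the 10 with the most reads present in and absent from the input, those in all 3 lists and the cloned sites, matched within 2 bp. The GC box, the ETS core, RUNX and NF-kB were added to the text with their values known. The members and the lists were chosen with earlier results of these data known. Alternatives covered read minimum, q-value, a Poisson test on whole reads, input weighting, flanks and filters. Python 3.11.15, numpy 2.4.6, pandas 2.3.3, scipy 1.17.1 and matplotlib 3.10.9 were used, and the gene and motif ratios were tested on simulated data. The genome sequence used here does not mark repeats, so repeat shares were not analysed.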

Additional observations from a re-analysis of the deposited data

How the results depend on the processing

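Of 855 alternatives for single genes, motifs, genomic features and chromosomes, 800 stayed within the counting interval of the value reported, 54 moved outside it and 1 reversed: the ETS core stood at 0.17 with 6 or more reads (35 loci) against -0.14 over all loci. The share of loci present in the input was 64.3% at 3 or more reads, 68.9% at 6 or more, 86.8% at q below 0.001 and 98.96% with a Poisson test of whole reads, which kept 153163 loci. In the same order of settings, the share of input loci listed was 2.28%, 0.385%, 8.29% and 3.19%, and it was 9.88% for input loci with 2 or more reads. The GC difference was 0.384 points at 3 or more reads, 0.567 at 6 or more, 0.169 against the input weighted by reads and 0.208 against input loci with 2 or more reads. The promoter log2 ratio of 0.0069 turned to -0.0141 at 3 or more reads, -0.0159 with the whole-read test and -0.0296 with protein-coding transcripts alone. The TATA box stood at -0.16 at 6 or more reads, -0.15 with the whole-read test, -0.14 among present loci, -0.0442 against the weighted input and -0.0556 at equal GC content. The X chromosome stood at 0.0249 at 6 or more reads against -0.0161.

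Genes at least 2-fold higher numbered 4 at 3 or more reads, 0 at 6 or more, 0 with 10 kb flanks, 5 with at least 5 expected loci, 0 with at least 20 and 0 with a pseudocount of 2. Genes at least 2-fold lower, 0.691% as reported, numbered 70 of 4687 (1.49%) at 3 or more reads, 2 of 118 (1.69%) at 6 or more, 59 of 3970 (1.49%) with the whole-read test, 46 of 5534 (0.831%) in gene bodies alone, 62 of 7216 (0.859%) with 10 kb flanks, 10 of 9179 (0.109%) with at least 20 expected loci and 66 of 18667 (0.354%) with a pseudocount of 2. Correlation of reads was 0.249 as Pearson's r of log2 reads, 0.0580 at 3 or more output reads, 0.0721 at 4 or more and 0.253 at 2 or more input reads. The share of loci near another was 12.3% at 3 or more reads, 2.02% at 6 or more, 29.9% at q below 0.001, 11.4% with the whole-read test, 17.1% within 500 bp, 82.3% within 5 kb and 30.3% with overlapping loci merged. Fewer loci enter under the read minimum and the whole-read test, and for the other changes the cause was not tested.

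No paired analysis was possible because the comparison has 1 output library and 1 input library, and for the same reason no replicate was left out. The planned repeat share was not run. The minimum of 4 reads, hexamers, windows, neighbouring loci and even counts were chosen after the data were seen. With a median of 2 reads per locus, a locus value has little precision. Total depth, the cell type of the input and the reads of positions that did not pass are unknown here.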
